A study of Mus musculus with 16 samples.

Results

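Skin treated with tofacitinib, a small-molecule inhibitor of the Janus kinases that is given by mouth or on the skin, was compared with skin taken before any treatment. The 12 arrays were chosen by their titles, 3 named day 5 and tofacitinib (mice 7, 8 and 9) and 9 named day 0 (mice 1 to 9), of 16 arrays in all. All mice were C57/B6 females (the titles write C57/B7), aged 8.5 weeks at day 0, and each array measured RNA of a whole dorsal skin biopsy. After the first biopsy the drug or the vehicle (DMSO) was put on the skin daily for 4 days, and a second biopsy of treated skin was taken at day 5. The doses, and the solvent of the drugs, are not given in the labels. The 2 vehicle arrays of day 5 (mice 2 and 3) and the 2 arrays of ruxolitinib, another Janus kinase inhibitor (mice 4 and 6), served to set the values beside skin of the same day. Mice 7, 8 and 9 also gave a day-0 array each, so that every tofacitinib array had its own baseline. The free-text description of the day-5 array of mouse 7 names ruxolitinib, whereas its title, source name, mouse code and treatment field name tofacitinib; it was kept as tofacitinib, and values without it are given where they change a result. The time, the application, the earlier biopsy and the drug all differ between day 0 and day 5 and cannot be told apart in that comparison, so the vehicle's change from the same day-0 arrays is printed beside the values that matter.

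Janus kinases are tyrosine kinases bound to the inner ends of cytokine receptors. When a cytokine such as an interferon binds, they phosphorylate STAT proteins, which enter the nucleus and switch on target genes, among them the feedback inhibitors of the SOCS family and the antiviral interferon-stimulated genes. In skin the pathway carries signals of interferons, of interleukins and of leptin and growth hormone to keratinocytes, immune cells and the dermis, and topical Janus kinase inhibitors are known for starting hair growth in resting mouse follicles.

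Promoters of 3 of the pathway's target genes whose transcripts changed in the comparison below are shown. They are RefSeq sequences of build GRCm38.p6, written 5′ to 3′ on the gene's own strand. Capitals mark the motif TTCNNNGAA, bound by STAT dimers, and the interferon motif, GAAA followed by any 2 bases and GAAA, the core of the interferon response element. Both strands were searched. The Socs3 stretch is chr11:117969367-117969566 on the minus strand and ends at the transcription start, with the STAT motif at position -154. The Cish stretch is chr9:107296459-107296688 on the plus strand, with 2 STAT motifs just past the start. The Ifitm3 stretch is chr7:141010715-141010944 on the minus strand, with 2 interferon motifs and 1 STAT motif, of which the second interferon motif overlaps the STAT motif. The promoters of Psmb9 and Ifih1, whose transcripts also fell, were searched too and are not printed. Psmb9 held 0 STAT and 0 interferon motifs, and Ifih1 held 0 STAT motifs and 1 interferon motif. Psmb9 was among the genes first planned for this search and Ifitm3 was not.
Socs3: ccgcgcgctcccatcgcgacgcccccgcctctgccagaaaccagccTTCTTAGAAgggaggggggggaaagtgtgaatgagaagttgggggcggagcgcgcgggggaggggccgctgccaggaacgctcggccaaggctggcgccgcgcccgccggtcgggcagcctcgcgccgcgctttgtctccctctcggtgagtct
Cish: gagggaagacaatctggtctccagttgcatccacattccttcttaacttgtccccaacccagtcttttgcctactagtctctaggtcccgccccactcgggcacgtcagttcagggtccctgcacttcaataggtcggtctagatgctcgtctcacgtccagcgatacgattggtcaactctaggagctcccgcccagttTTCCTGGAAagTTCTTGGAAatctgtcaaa
Ifitm3: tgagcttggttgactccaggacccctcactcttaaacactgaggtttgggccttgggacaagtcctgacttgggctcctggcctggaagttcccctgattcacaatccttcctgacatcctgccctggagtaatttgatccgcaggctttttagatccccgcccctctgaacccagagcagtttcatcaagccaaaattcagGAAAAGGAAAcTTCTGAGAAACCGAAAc
Over windows from 250 bases before to 50 bases after the start, the STAT motif was in 2726 of 32851 promoters of this length (8.3%) and the interferon motif in 1131 (3.44%). Of the 26 tested interferon-stimulated genes with a promoter sequence, 10 (38.5%) held the STAT motif and 14 (53.8%) the interferon motif. The shares were 1 and 3 of 10 for the genes of the immunoproteasome and of peptide loading, and 3 and 0 of 12 for the STAT feedback genes. Genes of these lists counted if any of their promoters held the motif, whereas the shares over all promoters count each promoter, so the units differ. A match describes the letters of the window and no binding.

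The arrays carried the keratinocyte keratins of skin at high levels: Krt14 lay between 13.08 and 13.31 at day 0 and at 12.82, 12.69 and 12.71 in the tofacitinib arrays, on the log2 scale of the deposited values. The medians over all probe sets lay between 3.75 and 3.94 on the 16 arrays. The day-0 arrays differed among themselves: on the first principal component, with 65.5% of the variance, those of mice 1, 3, 8 and 9 lay between -76.19 and -55.05 and those of mice 2, 4, 5, 6 and 7 between -34.92 and -18.73. The tofacitinib arrays lay at 37.64, 53.74 and 65.64 in the order of mice 7, 8 and 9. The level of the 3′ over the 5′ probe set of the transferrin receptor control, a sign of RNA integrity and amplification, was 1.405 to 2.418 at day 0 and 3.762, 3.326 and 2.23 in the tofacitinib arrays; its part in the results was not tested. A probe set at or under 2.43, the highest of 27 control probe sets with no mouse target, is called at background below.

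Tofacitinib skin at day 5 differed from day-0 skin in a large share of the genes measured. Of 12087 genes tested, 6055 (50.1%) passed an adjusted p of 0.05 with limma, 2742 of them higher (22.7%) and 3313 lower (27.4%) in tofacitinib skin, around a median change of -0.02 over all genes. By size, 1140 of the higher genes (9.43%) and 1240 of the lower genes (10.3%) changed by at least 1 log2 unit, that is at least 2-fold. In 1511 called genes (12.5%) all 3 tofacitinib arrays lay above all 9 day-0 arrays with a rise in each of the 3 mice, and in 2174 (18%) they lay below with a fall in each. Within mice 7, 8 and 9 alone, with each mouse set against its own day-0 array, 3681 genes passed, of which 3461 were also among the 6055. Vehicle skin differed from the same day-0 arrays in 6178 genes (51.1%; 22.2% higher and 28.9% lower) and ruxolitinib skin in 4104 (34%; 12.5% higher and 21.4% lower), so that the counts against day 0 are not particular to tofacitinib.

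The largest rises were of genes of differing tissues. Tmprss11a, a membrane serine protease of epithelia, lay between 1.62 and 3.73 with a median of 2.21 at day 0 and at 7.87, 8.93 and 7.16 in mice 7, 8 and 9. It rose by 5.56 ± 0.41 log2 units (SE; n = 9 and 3; limma adjusted p = 4.26e-07), and 5 of the day-0 arrays were at background, so that its 47.1-fold is imprecise. In vehicle skin it rose by 4.05. Procr, the endothelial receptor of protein C that also marks progenitor cells, was at 2.65 to 4.13 (median 3.19) at day 0 and at 8.37, 7.86 and 8.19 under tofacitinib. The groups stood far apart and the rise was 4.91 ± 0.27 (30-fold; adjusted p = 3.9e-08), beside 4.42 in vehicle skin. Fosl1, an AP-1 partner of the Jun proteins, was at 10.60, 8.82 and 8.70 against a day-0 median of 3.72, although mouse 7 already had 8.47 at day 0. Its rise was 4.95 ± 0.86 (adjusted p = 0.000396), and the gene's other probe set gave 1.32. The remaining genes among the 12 largest rises were the muscle genes Myl2, Tnnt1, Ankrd1, Mybph and Actc1, with Fam107a (4.70 ± 0.44), the retinol carrier Rbp4 (3.94 ± 0.82), the secreted Cytl1 (3.98 ± 0.34, with 8 day-0 arrays at background) and the sweet taste receptor subunit Tas1r2. Tas1r2 was at background on all 9 day-0 arrays and at 7.40, 5.99 and 5.89 under tofacitinib, at least 15.9-fold higher. Genes dim at day 0, such as Tas1r2 and Tmprss11a, passed the filter on low values through day-5 arrays, which favours rises.

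The largest falls included immune and interferon genes. Hamp2, a paralogue of the iron hormone hepcidin, lay between 9.87 and 11.44 (median 10.40) at day 0 and at 4.33, 3.09 and 3.53 under tofacitinib. No array of either group came near the other, and the fall was -6.83 ± 0.41 log2 units, 114-fold (adjusted p = 8.86e-08). In vehicle skin it was -4.87. Ackr2, a decoy receptor that removes inflammatory chemokines, was at 7.72 to 9.23 (median 8.13) before and at 3.84, 4.35 and 2.72 after, a change of -4.72 ± 0.36 (adjusted p = 5.36e-07) beside -5.04 in vehicle skin. Sectm1a fell by 5.07 ± 0.26, the Ras effector Rin1 by 4.83 ± 0.26, and the fructose transporter Slc2a5 by 4.79 ± 0.29, with 2 tofacitinib arrays at background. The host gene of an epithelial microRNA, Mir205hg, fell by 5.09 ± 0.47. Smim5 (-4.66), the fatty acid carrier Slc27a3 (-4.30), the cation channel Trpc4 (-4.26) and the gut peptide gene Guca2a (-4.19) completed the 12 with Ifitm6 and Usp18, which are described with the interferon genes. For Trpc4 all 3 tofacitinib arrays were at background, at least 12.4-fold lower, and its other probe set gave -0.81.

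**Figure D1:**
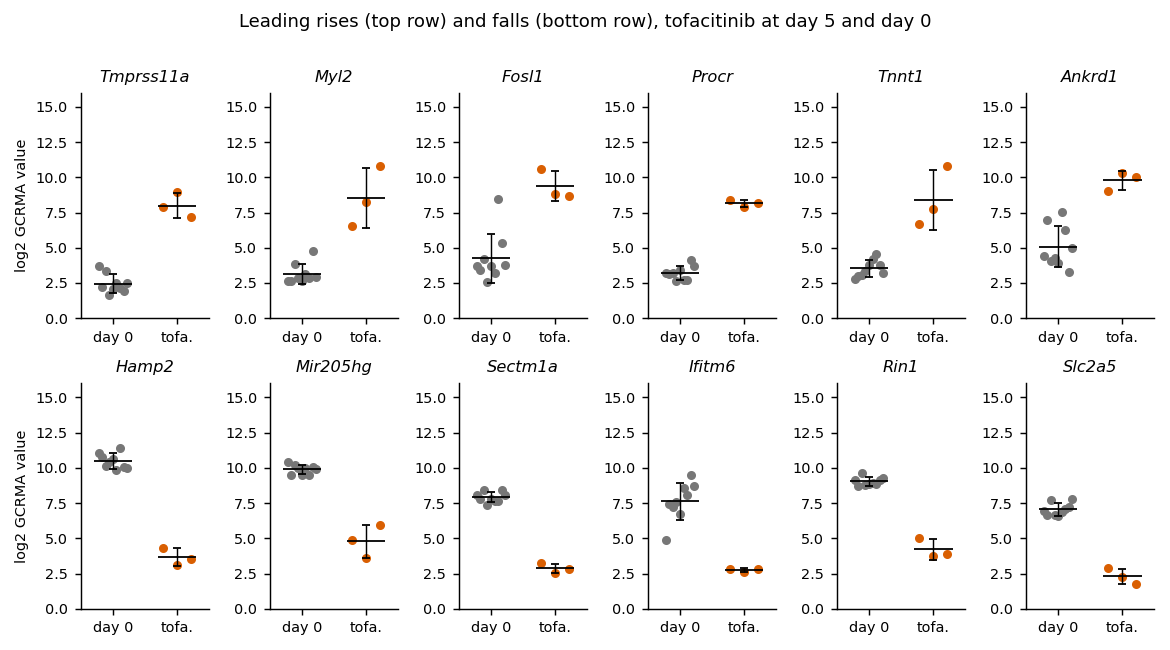
Log2 expression of the genes with the largest rises and falls in tofacitinib skin, with a point for each array of day 0 and of tofacitinib at day 5. The tofacitinib arrays of Hamp2 lie between 3.09 and 4.33, below the lowest day-0 array at 9.87, and those of Procr between 7.86 and 8.37, above the highest at 4.13.

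Among the ligands that signal through Janus kinases, 5 of 19 listed genes were tested. Of these 3 were lower, 1 higher and 1 not called, beside 27.4% lower and 22.7% higher over all genes. Their median change was -0.70 beside -0.02 over all genes. Il7, a survival factor of T cells made by keratinocytes, was at 4.98 to 5.85 (median 5.36) at day 0 and at 3.80, 3.83 and 3.43 after, below every day-0 array. It fell by 1.70 ± 0.19 (adjusted p = 9.63e-06), beside -2.01 in vehicle skin. Csf1, the growth factor of macrophages, fell by 1.93 ± 0.30 (adjusted p = 0.000176), and its other probe set gave -0.68. Tslp, an epithelial cytokine of allergic inflammation, rose by 1.87 ± 0.41 (adjusted p = 0.002), with 9.08 in mouse 7 and 6.89 and 7.40 in mice 8 and 9 against 5.26 to 6.85 at day 0. Within the 3 mice's own pairs its adjusted p was 0.0791. The change of the cardiotrophin gene Ctf1 (-0.44) had an adjusted p of 0.0176, of 0.118 with the mouse as a fixed block, of 0.0803 without mouse 7 and of 0.0558 without mouse 9.

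The receptors of the pathway were mostly lower. Of 20 tested, 12 were lower, 3 higher and 5 not called, beside 27.4% lower and 22.7% higher over all genes. The median change was -0.69 in tofacitinib skin and -0.57 in vehicle skin, where 11 were lower and 3 higher. Il20ra, a receptor chain for the interleukin-20 cytokines on keratinocytes, was at 8.38 to 9.79 (median 8.68) at day 0 and at 4.68, 3.90 and 5.95 after. It fell by 4.11 ± 0.44 (adjusted p = 7.31e-06), with all 3 arrays below all day-0 arrays. Il4ra, the shared chain of the interleukin-4 and interleukin-13 receptors, fell by 2.08 ± 0.29, and Il15ra by 1.10 ± 0.14. The interferon receptor chain Ifnar1 fell by 0.87 ± 0.13 (adjusted p = 0.000164), with 5.54, 5.18 and 4.97 against 5.85 to 6.41. Il20rb (-1.35), Il13ra1 (-1.33), Osmr (-0.94) and Il22ra1 (-1.0) also fell. The leptin receptor Lepr rose by 1.48 ± 0.48 (adjusted p = 0.0189), with all 3 tofacitinib arrays (9.44, 9.63 and 8.83) above the highest day-0 array (8.65). The signal chain Il6st (0.46) and the growth hormone receptor Ghr (0.33) were higher too, both with arrays that overlap day 0. None of the 3 receptors that were higher stayed so without mouse 8.

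The kinases that tofacitinib binds did not move as a group. Jak1 was at 8.54 to 9.20 (median 8.97) at day 0 and at 9.16, 8.62 and 8.40 after, a difference of -0.21 ± 0.16 (adjusted p = 0.273), which without mouse 7 was -0.47 (adjusted p = 0.0149). Jak2 was at 10.59, 10.65 and 10.68 within the day-0 range of 10.45 to 10.85 (0.09; adjusted p = 0.449), while its other probe set gave 1.34. Both groups overlapped for these genes. Tyk2, the kinase of interferon and interleukin-12 receptors, was at 7.58 to 8.32 (median 8.08) at day 0 and at 6.98, 6.16 and 6.42 after, below all day-0 arrays. It fell by 1.47 ± 0.18 (adjusted p = 2.04e-05), beside -1.73 in vehicle skin. Of the STAT genes, Stat5a, a mediator of growth hormone and interleukin signals, lay at 9.67, 9.71 and 9.08 under a day-0 range of 10.48 to 10.90. It fell by 1.22 ± 0.14 (adjusted p = 1.48e-05), and by 0.80 in vehicle skin. Stat2 fell by 0.99 ± 0.17 from a level near background, and Stat6, which carries the interleukin-4 signal, by 0.77. The smaller changes of Stat3 (-0.38; adjusted p = 0.0239) and Stat5b (0.49; adjusted p = 0.0183) did not pass in every refit. For Stat3 the change was -0.25 without mouse 8 (adjusted p = 0.181), -0.39 without mouse 9 (0.0712), -0.53 within the own pairs (0.0889) and -0.31 with the arrays centred on their median (0.0506). For Stat5b it was 0.46 without mouse 8 (adjusted p = 0.0695), 0.30 without mouse 9 (0.175) and 0.55 with a fixed mouse block (0.087). In all, 5 of the 8 tested kinases and STATs were lower and 1 higher, beside 27.4% lower and 22.7% higher over all genes.

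The negative regulators and early targets of STAT signalling were of both directions, 5 lower, 2 higher and 11 not called of 18 tested, with a median of 0.11 (1 higher with a fixed mouse block). Over all genes 27.4% were lower and 22.7% higher, so the share lower was near that of all genes. Socs3, the feedback inhibitor of interleukin-6 and leptin signalling whose promoter is printed above, was at 9.13 to 10.53 (median 9.88) at day 0 and at 8.36, 7.56 and 8.35 after. All 3 tofacitinib arrays lay below all 9 day-0 arrays, and the fall was -1.81 ± 0.25 (3.49-fold; adjusted p = 5.93e-05); the gene's other probe sets gave -1.82. The 2 vehicle arrays were at 9.81 and 9.11, a difference of -0.43 from day 0 (adjusted p = 0.235), and the ruxolitinib arrays at 7.92 and 8.11. Set directly against vehicle, Socs3 differed by -1.38 under tofacitinib (95% interval -2.12 to -0.64) with an adjusted p of 0.146, which did not pass. Cish, an inhibitor induced through STAT5, was at 7.71, 7.99 and 6.05 against 8.10 to 9.59 (median 8.93) and fell by 1.75 ± 0.38 (adjusted p = 0.00199). In vehicle skin it fell by 2.07. Pias3, a STAT3 inhibitor, fell by 1.50 ± 0.14 and the phosphatase Ptpn6 by 1.80 ± 0.20, and both also fell in vehicle skin (-1.71 and -2.28). The kinase Pim2 rose by 1.25 ± 0.28 with arrays that overlap day 0. Socs2 (0.45; adjusted p = 0.332), Pim1 (-0.15), Bcl6 (0.25) and Myc (0.16) did not pass.

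Interferon-stimulated genes were lower in tofacitinib skin. Of 33 tested, 23 were lower, 0 higher and 10 not called, beside 27.4% lower and 22.7% higher over all genes. Their median change was -1.19. In 16 of the 33 all 3 tofacitinib arrays lay below all 9 day-0 arrays, as in 18.3% of all genes tested. The mean level of the 33 genes was 6.04 to 7.39 on the day-0 arrays, 5.67 to 5.76 on the vehicle arrays and 5.22 to 5.37 on the tofacitinib arrays. Within mice 7, 8 and 9 the median change was -0.89, -1.08 and -1.15. In vehicle skin 14 of the 33 were lower, with a median of -0.88. Usp18, the protease that removes the interferon-induced modifier ISG15, was at 5.66 to 7.39 (median 7.04) at day 0 and at 3.15, 2.25 and 2.46 after. It fell by 4.23 ± 0.31 (18.7-fold; adjusted p = 3.56e-07), with 1 tofacitinib array at background, and by 3.17 in vehicle skin. Ifitm6, a membrane protein of the interferon-induced family, varied widely at day 0 (4.91 to 9.50) and lay at 2.85, 2.59 and 2.84 after. It fell by 4.98 ± 0.66 (adjusted p = 4.44e-05), and by 2.92 in vehicle skin. Ifitm3, which blocks the entry of viruses and whose promoter is printed above, was at 10.82, 10.35 and 9.92 under a day-0 range of 11.46 to 12.15. It fell by 1.46 ± 0.16 (adjusted p = 1.05e-05), beside -1.14 in vehicle skin. Parp14 fell by 2.33 ± 0.21 (its other probe set gave -0.71), the RNA sensor Ifih1 by 1.35 ± 0.18 and Oas1a, which makes the signal for RNA cleavage, by 1.67 ± 0.32. The transcription factors Irf9 (-1.19), Irf7 (-1.27) and Irf1 (-1.10) fell, as did the chemokines Cxcl9 (-1.44) and Cxcl10 (-1.85). Mx1 (-0.15), Rsad2 (-0.25), Bst2 (-0.15), Ifit2 (0.29) and Ifit3 (0.77) did not pass, so the list did not move as a block. No member was called against vehicle at day 5, where the list's median was -0.32 beside 0.01 over all genes.

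Genes that cut and load peptides for MHC class I, which interferon-gamma induces, were also lower, 10 of 12 tested beside 27.4% over all genes. The list had 0 higher and a median of -0.84. The vehicle arrays gave 11 lower and a median of -0.85. Psmb9, a catalytic subunit of the immunoproteasome, was at 8.48 to 9.67 (median 9.30) at day 0 and at 6.44, 4.65 and 5.40 after. It fell by 3.75 ± 0.32 (adjusted p = 1.35e-06), with mouse 7 the least (-2.63) and mouse 8 the most (-4.89). Psmb8, its partner subunit, fell by 2.69 ± 0.25 (other probe set -0.53), the peptide transporter Tap1 by 2.39 ± 0.23, and Nlrc5, the transcriptional activator of class I genes, by 1.45 ± 0.17. The constitutive chaperones Calr (-0.26) and the trimming peptidase Erap1 (-0.11) did not pass.

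**Figure D2:**
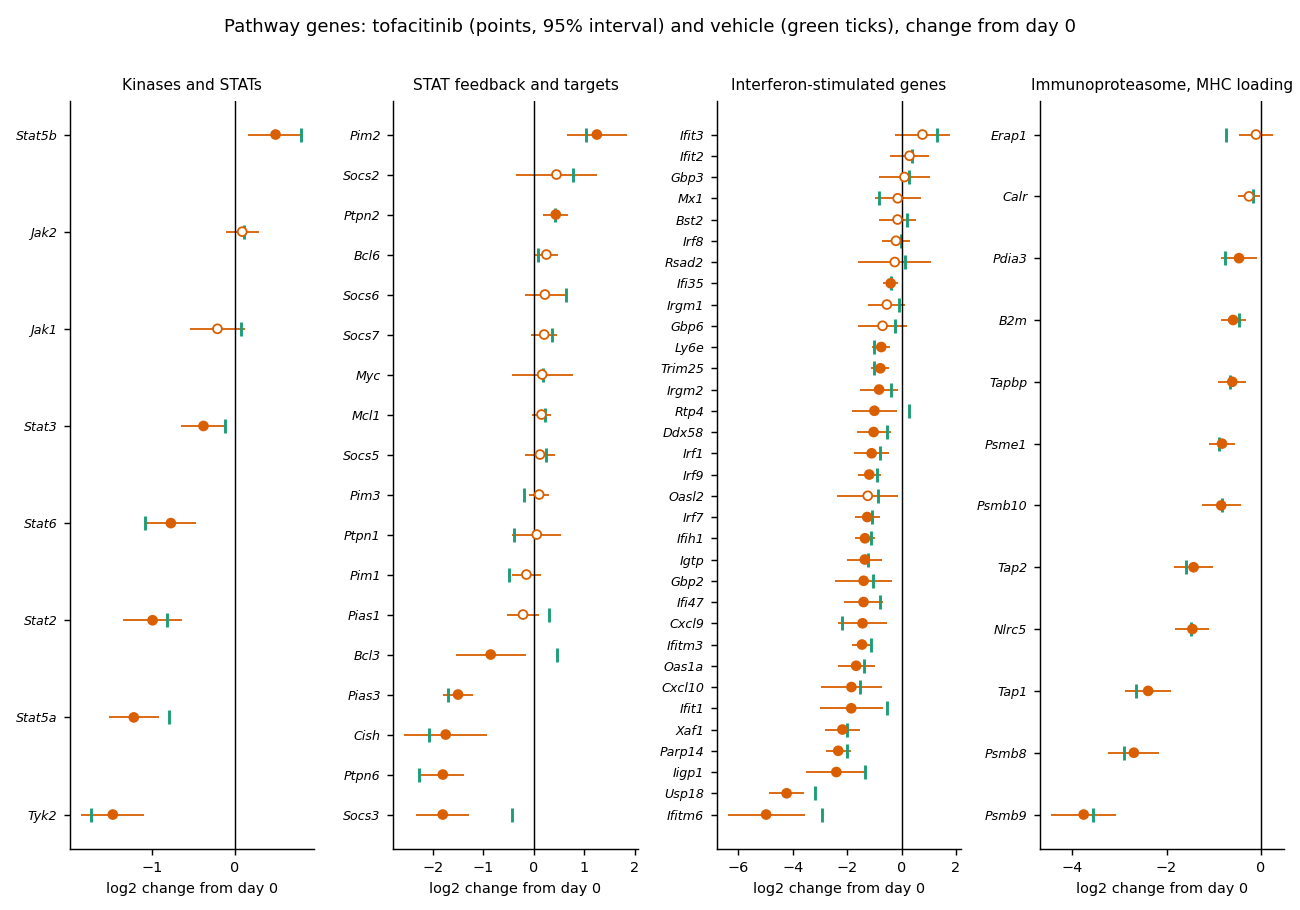
Log2 change from day 0 of genes of the Janus kinase pathway and its targets under tofacitinib, with 95% intervals, and under vehicle (ticks). The median change of the interferon-stimulated genes is -1.19 under tofacitinib and -0.88 under vehicle. That of the genes of the immunoproteasome and of peptide loading is -0.84 and -0.85.

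Transcripts of T and NK cells were among the most reduced. Of 26 listed markers 11 were tested, of which 10 were lower and 1 not called, with a median of -2.64. Over all genes 27.4% were lower. Members dim at day 5 could pass the filter on low values through day-0 arrays. In 9 of the 11, all 3 tofacitinib arrays lay below all 9 day-0 arrays, as in 18.3% of all genes tested. Their mean level was 5.65 to 7.11 on the day-0 arrays, 3.79 to 4.41 under tofacitinib and 4.05 to 4.10 under vehicle, where 11 were lower with a median of -2.24. In whole skin, fewer cells of a type and less RNA per cell cannot be told apart. Cd3g, a chain of the T cell receptor complex, was at 6.40 to 8.10 (median 6.95) at day 0 and at 3.83, 3.31 and 3.35 after. It fell by 3.55 ± 0.33 (11.7-fold; adjusted p = 2.79e-06) and by 3.80 in vehicle skin. Cd3e (-3.29), Cd3d (-2.97) and Cd7 (-2.71) fell with it. The epidermal alarmin Il33 fell by 2.27 ± 0.26 (adjusted p = 1.05e-05), at 8.32, 7.70 and 8.0 under 9.86 to 10.98 at day 0, and 7 of 10 tested genes of the interleukin-1 family were lower with 0 higher.

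The lists of other immune cells were of differing directions. Over all genes 22.7% were higher and 27.4% lower. Of 11 listed mast cell genes 6 were tested, and all 6 were higher, with a median of 2.03. Their mean level was 2.70 to 4.56 on the day-0 arrays and 5.00 to 6.37 on the tofacitinib arrays. Members dim at day 0 could pass the filter on low values through day-5 arrays, which favours rises among those tested. With the filter at 6 instead of 4, 3 were tested and 3 were higher. The histamine-forming enzyme Hdc was at 7.48, 6.09 and 5.53 above a day-0 range of 2.55 to 4.84, and rose by 2.47 ± 0.40 (adjusted p = 0.000221). The proteases Cma1 (2.15), Cpa3 (2.05), Mcpt4 (2.02) and Tpsb2 (1.63) and the receptor Kit (0.91) rose too. In vehicle skin 2 of the 6 were higher with a median of 1.29, and the difference between tofacitinib and vehicle passed for 0 of the 6. Macrophage genes were 9 higher, 1 lower and 6 not called of 16 tested. Their median was 1.06, beside 0.95 in vehicle skin, where 10 were higher. Macrophage genes dim at day 0 could also pass the filter on low values through day-5 arrays. With the filter at 6, 4 of 9 tested were higher. Without mouse 7 the counts were 5 higher and 2 lower of the 16 (2 lower also with a fixed mouse block). Cd163, the haemoglobin scavenger receptor of resident macrophages, rose by 2.08 ± 0.48 (adjusted p = 0.0029), with 8.19, 7.98 and 8.34 above 4.79 to 7.62, and the complement genes C1qa, C1qb and C1qc rose by 1.20, 1.13 and 1.41. Ccr2, the chemokine receptor of monocytes that enter tissue, fell by 1.83 ± 0.39 (adjusted p = 0.0017). Of 9 tested genes of Langerhans and dendritic cells, 4 were lower, 1 higher and 4 not called, and the lower ones numbered 7 without mouse 7 and 2 without mouse 8. The class II gene H2-Eb1 (-1.03) was among them, with an adjusted p of 0.0849 without mouse 8, while the Langerhans receptor Cd207 (0.58; adjusted p = 0.34) did not pass. Of 11 listed neutrophil genes 2 were tested, and the alarmin S100a9 (1.29) lost its call with a fixed mouse block (adjusted p = 0.0891), without mouse 7 (0.0824) and without mouse 8 (0.176). For B cells only Blnk was tested, and its change of -0.38 had an adjusted p of 0.0713 with a fixed block, 0.147 without mouse 8 and 0.159 without mouse 9. Chemokines and their receptors moved both ways, with 4 higher and 8 lower of 18 tested (5 lower without mouse 9). Cxcl14, made by resting epidermis, fell by 2.01 ± 0.20, whereas the eosinophil attractant Ccl11 (1.80) and the B cell attractant Cxcl13 (3.39) rose.

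**Figure D3:**
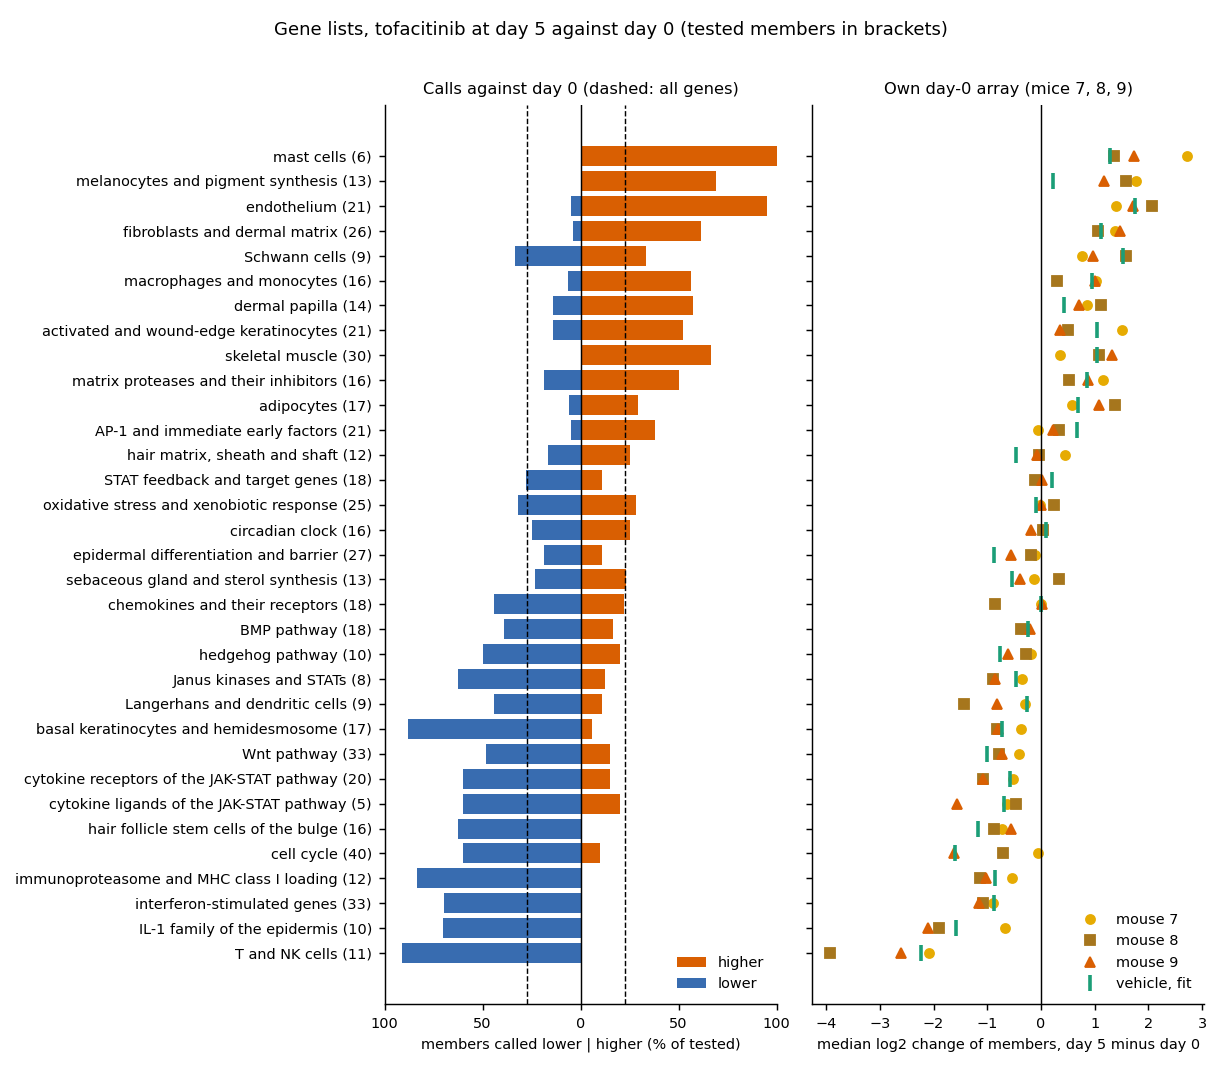
Share of tested genes of each list that were called higher or lower in tofacitinib skin against day 0 (lists with few tested genes left out). Beside it are the list's median log2 change in each tofacitinib mouse from its own day-0 array and the median in vehicle skin. T and NK cell genes have 10 of 11 lower and endothelial genes 20 of 21 higher, beside 27.4% lower and 22.7% higher over all genes.

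The epidermal gene lists did not share a direction. Over all genes 27.4% were lower and 22.7% higher. Of 17 tested genes of basal keratinocytes and of the hemidesmosome, the anchor of the epidermis to its basement membrane, 15 were lower, 1 higher and 1 not called, with a median of -0.63 beside -0.73 in vehicle skin. Within the mice's own pairs 9 of the 17 were lower. Col17a1, the transmembrane collagen of the hemidesmosome, was at 12.29 to 12.77 (median 12.51) at day 0 and at 11.60, 11.31 and 11.17 after. It fell by 1.21 ± 0.13 (adjusted p = 7.92e-06). Itgb4, the integrin that holds keratin filaments to laminin, fell by 2.22 ± 0.28, Lama3, a chain of that laminin, by 1.90, and Krt15, a keratin of basal and bulge cells, by 0.95. The integrin Itgb1 rose by 0.92. Genes of activated and wound-edge keratinocytes were 11 higher, 3 lower and 7 not called of 21 tested, with a median of 0.89. Vehicle skin also had 11 higher and 3 lower of the 21, with a median of 1.05. Krt16, a keratin of injured epidermis, was at 6.20 to 8.32 (median 7.69) at day 0 and at 11.21, 9.92 and 10.73 after. It rose by 3.26 ± 0.44 (adjusted p = 4.93e-05), and by 3.97 in vehicle skin. Sprr1b, a cornified envelope precursor, rose by 3.68. The injury keratin Krt17 fell by 0.99 ± 0.15 and the gelatinase Mmp9 by 3.06 ± 0.51 (other probe set -0.83), against the direction of most of the list. The stromelysin Mmp3 rose by 2.07 ± 0.32 and the aggrecanase Adamts1 by 1.52 ± 0.22.

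Differentiation and barrier genes of the upper epidermis were nearer their day-0 levels than in vehicle skin by count. Over all genes 22.7% were higher and 27.4% lower under tofacitinib, and 22.2% and 28.9% under vehicle. Of 27 tested members, 3 were higher, 5 lower and 19 not called under tofacitinib, with a median of -0.07. Under vehicle 0 were higher and 19 lower, with a median of -0.87. The lower count was 8 without mouse 7 and 1 without mouse 9, and none of the 27 was called in tofacitinib against vehicle, where their median was 0.88 beside 0.01 over all genes. Rptn, a calcium-binding precursor of the cornified envelope, was at 2.92 to 4.35 (median 3.60) at day 0, at 3.44 and 3.47 under vehicle and at 4.57, 6.16 and 6.65 under tofacitinib. It rose by 2.18 ± 0.35 from day 0 (adjusted p = 0.000241) and was 2.32 above vehicle (adjusted p = 0.0827), which did not pass. Filaggrin, Flg, the barrier protein of the granular layer, rose by 1.49 ± 0.33 with 1 tofacitinib array inside the day-0 range. The crosslinking enzyme Tgm1 fell by 1.51. Krt10 (-0.22; adjusted p = 0.12) and Lor (0.04; adjusted p = 0.8) did not pass.

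Genes of the hair follicle and of its signals were not of a single direction. The bulge, which houses the follicle's stem cells, had 10 lower, 0 higher and 6 not called of 16 tested (6 lower with a fixed mouse block), among them Fgf18 (-2.50), a signal of the resting phase, and Lgr6 (-1.45). Wnt pathway genes, which drive the start of hair growth, were 16 lower, 5 higher and 12 not called of 33, with a median of -0.65 beside -1.0 in vehicle skin. The ligand Wnt3 was at 8.30 to 9.48 (median 9.30) at day 0 and at 5.77, 4.73 and 5.21 after, and fell by 3.82 ± 0.28 (adjusted p = 3.99e-07). The receptor Fzd10 was at background on all 3 tofacitinib arrays, at least 11.5-fold lower. Wnt3a (-2.61) and the Wnt target and inhibitor Rnf43 (-1.85) fell, whereas the antagonist Dkk2 (2.68) rose. BMP pathway genes, which hold follicles at rest, were 7 lower, 3 higher and 8 not called of 18, beside 27.4% lower and 22.7% higher over all genes. Bmp4 fell by 2.66 ± 0.21 (adjusted p = 7.17e-07), from 7.28 to 8.14 at day 0 to 5.63, 4.57 and 5.39.

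Sonic hedgehog, a growth signal of the active hair follicle's matrix, was higher in both drug groups. Shh was at 2.43 to 3.76 (median 2.80) at day 0, at 2.73 and 2.27 under vehicle, at 7.45 and 5.30 under ruxolitinib and at 6.95, 3.90 and 4.65 under tofacitinib. All 3 tofacitinib arrays lay above all day-0 and vehicle arrays, with mouse 7 the highest, and the rise from day 0 was 2.27 ± 0.51 (adjusted p = 0.00241). Shh passed the filter on low values through arrays of the drug groups only, which favours a rise. Its difference from vehicle, 2.64 (95% interval 1.11 to 4.18), had an adjusted p of 0.171. The other tested genes of its pathway were 5 lower, 1 higher and 3 not called, with the co-receptors Boc (-1.78 ± 0.19) and Cdon (-1.25) among the lower. Without mouse 7 or mouse 8 only 1 gene of the pathway was higher. Of 12 tested genes of hair matrix, sheath and shaft, 3 were higher, 2 lower and 7 not called, with 4 lower without mouse 7 and 1 lower without mouse 8, without mouse 9 or with a fixed mouse block. The share higher was near the 22.7% over all genes. Krt25, a keratin of the inner root sheath, was at 4.26, 2.79 and 5.02 against a day-0 range of 1.95 to 2.82 and was called higher (adjusted p = 0.000573). With 8 of the 9 day-0 arrays at background, its size is given as a bound, at least 2.92-fold, with those arrays set to the background. Krt25 passed the filter on low values through day-5 arrays only. Gata3, a factor of the inner root sheath, fell by 1.93. The dermal papilla, the mesenchymal core that instructs the follicle, had 8 higher, 2 lower and 4 not called of 14 (4 higher without mouse 8). Its matrix protein Vcan was at 6.98, 6.47 and 5.05 above 3.18 to 4.73 and rose by 2.21 ± 0.34 (adjusted p = 0.000166), beside 0.94 in vehicle skin. The Wnt amplifier Rspo3 fell by 3.80 ± 0.31, beside -4.51 in vehicle skin.

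Pigment genes were higher under tofacitinib than at day 0. Of 13 tested genes of melanocytes and pigment synthesis, 9 were higher, 0 lower and 4 not called, beside 22.7% higher over all genes. Their median was 1.85. In 8 of the 13 all 3 arrays lay above all 9 day-0 arrays, as in 12.9% of all genes tested. Vehicle skin had 1 higher and a median of 0.23, and ruxolitinib skin 9 higher and a median of 1.73. The mean level of the 13 genes was 4.62 to 5.62 on the day-0 arrays, 5.14 to 5.62 on the vehicle arrays and 6.25 to 7.28 on the tofacitinib arrays, and the median change within mice 7, 8 and 9 was 1.78, 1.59 and 1.18. Against vehicle, 3 of the 13 (Pmel, Tyrp1 and Tyr) were called higher and 10 were not called. These 3 calls were lost with a fixed mouse block (adjusted p of 0.751 for Pmel, 1 for Tyrp1 and 1 for Tyr) and without the vehicle array of mouse 2 (0.202, 0.222 and 0.202), while that of Tyrp1 was also lost without mouse 7 (0.0753) or mouse 8 (0.051).

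Pmel, which builds the fibrils on which melanin is laid down, was at 3.80 to 4.98 (median 4.25) at day 0, at 3.70 and 4.09 under vehicle, at 7.40 and 6.79 under ruxolitinib and at 7.89, 6.75 and 6.40 under tofacitinib. The tofacitinib arrays lay above every day-0 and vehicle array. It rose by 2.69 ± 0.27 from day 0 (adjusted p = 4.04e-06) and was 3.09 above vehicle (95% interval 2.29 to 3.89; adjusted p = 0.00503). Tyrp1, an enzyme of melanin synthesis, was at 3.11 to 4.95 (median 4.39) at day 0, 4.09 and 5.11 under vehicle and 8.36, 7.74 and 7.24 under tofacitinib. It rose by 3.43 ± 0.33 (adjusted p = 3.29e-06) and was 3.11 above vehicle (adjusted p = 0.0146). Tyr, tyrosinase, the rate-limiting enzyme, was at background on all 9 day-0 arrays, at 1.71 and 2.29 under vehicle and at 4.76, 3.88 and 3.60 under tofacitinib, at least 3.13-fold above day 0. Both vehicle arrays were at background as well, so that the same bound holds against vehicle (adjusted p = 0.0138). Tyr therefore passed the filter on low values through arrays of the drug groups only. Dct, the dopachrome tautomerase, was at 10.24, 9.26 and 9.73 against 5.36 to 7.76 at day 0, a rise of 3.02 ± 0.42. Its difference from vehicle was 2.79 with an adjusted p of 0.0758. Mlana (2.54), the endothelin receptor Ednrb (1.91) and Pax3 (1.01) rose, and the master regulator Mitf (-0.35; adjusted p = 0.073) and Sox10 (1.09; adjusted p = 0.1) did not pass.

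Genes of vessels and of the dermal matrix were mostly higher. Endothelial genes had 20 higher, 1 lower and 0 not called of 21 tested, with a median of 1.68 and medians of 1.41, 2.07 and 1.71 within mice 7, 8 and 9. Vehicle skin had 18 higher and a median of 1.75. Members dim at day 0 could pass the filter on low values through day-5 arrays. With the filter at 6 instead of 4, 9 of 10 tested were higher under tofacitinib. The clotting factor Vwf of vessel walls was at 3.32 to 4.90 (median 3.94) at day 0 and at 6.58, 6.39 and 5.76 after, a rise of 2.20 ± 0.33 (adjusted p = 0.00013). Cdh5 (1.44), Pecam1 (1.35), Kdr (1.10) and Tek (2.37), which mark endothelium, rose, and the adhesion molecule Icam1, which cytokines induce, fell by 1.19 ± 0.30. Fibroblast and matrix genes were 16 higher, 1 lower and 9 not called of 26, with a median of 1.38. In vehicle skin 11 of the 26 were higher and 2 lower, with a median of 1.12. Lum, a proteoglycan of collagen fibrils, was at 7.25, 6.69 and 6.18 above 2.41 to 4.92 at day 0 and rose by 2.72 ± 0.40 (adjusted p = 0.000102), and fibronectin, Fn1, rose by 2.11 ± 0.32. The chief collagens Col1a1 (0.51; adjusted p = 0.27) and Col3a1 (0.62; adjusted p = 0.16) did not pass. Of 17 adipocyte genes 5 were higher, 1 lower and 11 not called, with 11 higher and 0 lower under a fixed mouse block, 2 higher without mouse 8 and 2 higher without mouse 9. Over all genes 22.7% were higher. Leptin, Lep, the hormone of fat cells, lay at 9.80, 9.53 and 9.06, above a wide day-0 range of 2.31 to 7.93, and rose by 3.75 ± 0.92 (adjusted p = 0.00408). All these lists differ in level between the day-0 arrays: the mean of the endothelial genes ran from 3.04 to 4.79, that of the fibroblast genes from 6.34 to 8.14 and that of the adipocyte genes from 8.19 to 10.53, and the part that the depth of the biopsy plays was not tested.

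Skeletal muscle genes, which mark the thin muscle sheet under mouse skin, were 20 higher, 0 lower and 10 not called of 30. Over all genes 22.7% were higher. The median of the 30 was 0.84 beside 1.04 in vehicle skin, where 18 were higher. Without mouse 9, the tofacitinib count was 9 higher. The mean level of the 30 was 8.26 to 9.25 on the day-0 arrays and 9.70 to 10.87 under tofacitinib. Mybph, a myosin-binding protein, was at 5.11 to 7.01 (median 6.20) before and at 10.39, 10.01 and 11.72 after, a rise of 4.64 ± 0.36 (adjusted p = 6.59e-07). Actc1, the cardiac actin of developing muscle, rose by 4.35 ± 0.39 and by 5.33 in vehicle skin. The genes with the largest spread among the 3 tofacitinib arrays were all of muscle. Myh7, the slow myosin, was at 3.29, 3.55 and 8.99 in mice 7, 8 and 9 (2.33; adjusted p = 0.0726), and Tnnc1, its troponin, at 3.93, 4.09 and 8.22 (2.34; adjusted p = 0.0347, and 0.175 with a fixed block and 0.36 without mouse 9). Myl2 was at 6.54, 8.23 and 10.81, Tnnt1 at 6.69, 7.73 and 10.77 and Mir133b at 3.71, 5.96 and 7.64. Mouse 9 was the highest in each of these genes, and 1 vehicle array, of mouse 2, was high in Myh7 (8.63) and Tnnc1 (8.45) as well.

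Proliferation genes depended on the mouse. Of 40 tested cell cycle genes, 24 were lower, 4 higher and 12 not called, beside 27.4% lower and 22.7% higher over all genes. The list's median was -0.75, but the median change was -0.06 in mouse 7, -0.71 in mouse 8 and -1.63 in mouse 9. Without mouse 9 the counts were 6 lower and 3 higher, with a fixed mouse block 14 lower and 0 higher, and 11 lower when day-0 arrays 1, 3, 8 and 9 were left out. In these refits 2355, 2497 and 2605 of all 12087 genes were lower. Without mouse 9 the list's share lower was thus no larger than that of all genes. Of the 40, vehicle skin had 29 lower, 0 higher and a median of -1.59, and ruxolitinib skin 5 lower and 3 higher. Ube2c, which marks mitotic proteins for destruction, was at 8.61 to 9.55 (median 9.25) at day 0, at 5.67 and 6.22 under vehicle and at 8.40, 7.28 and 5.68 under tofacitinib. The tofacitinib array of mouse 9 was as low as the vehicle arrays and that of mouse 7 near the day-0 range; the fall was -2.04 ± 0.40 (adjusted p = 0.00102). Nusap1, a spindle protein, gave 7.90, 7.48 and 5.50 against 8.43 to 9.95 (-2.09 ± 0.44; adjusted p = 0.00149; other probe set -0.32), in the same order of mice. The checkpoint kinase Bub1b fell by 1.45 ± 0.29 and cyclin D1, Ccnd1, by 1.18 ± 0.19. The G1/S cyclin Ccne1 rose by 0.71. No cell cycle gene was called in tofacitinib against vehicle, where the median was 0.83.

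**Figure D4:**
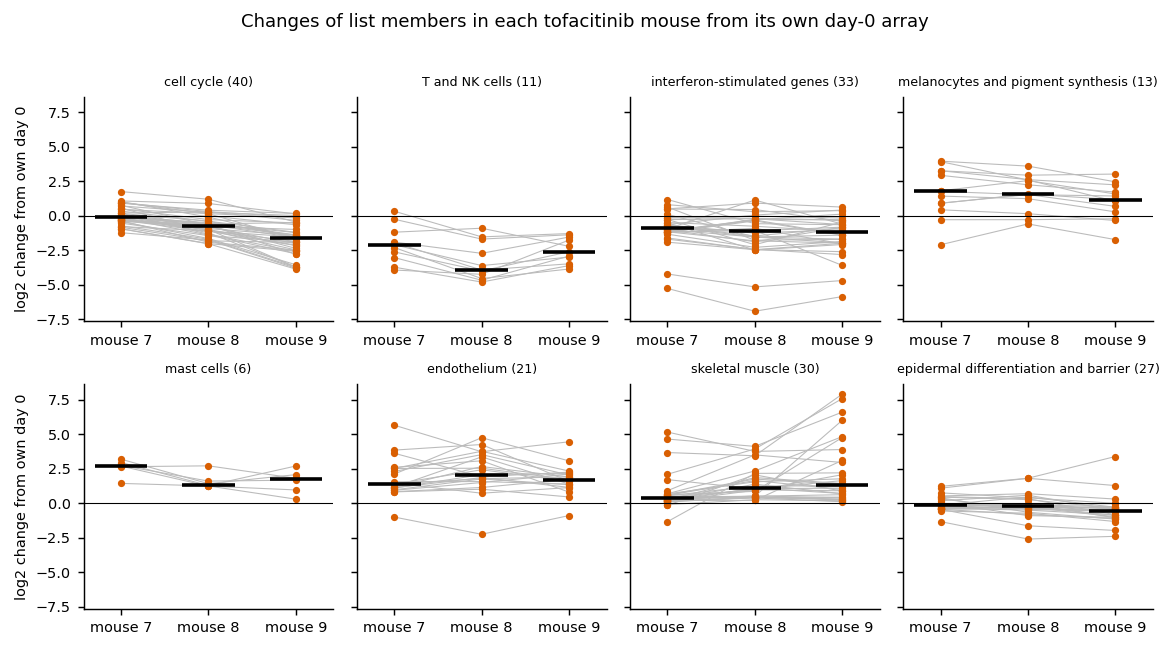
Log2 change from its own day-0 array of each tested member of selected gene lists in mice 7, 8 and 9, with the median of each list. The median of the cell cycle list runs from -0.06 in mouse 7 to -1.63 in mouse 9. The medians of T and NK cell genes are low (-2.09, -3.92 and -2.60) and those of endothelial genes high (1.41, 2.07 and 1.71) in all 3.

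Clock genes and stress genes were called in both directions. Of 16 tested clock genes 4 were higher, 4 lower and 8 not called (2 higher without mouse 8 and with a fixed mouse block), a share near the 50.1% called over all genes. The repressor Cry1 was at 8.38 to 9.49 (median 8.90) at day 0 and at 10.88, 10.82 and 10.50 after, a rise of 1.83 ± 0.20 (adjusted p = 9.85e-06), and Per2, its partner, rose by 1.70 ± 0.28. The nuclear receptor Nr1d1, which works in the opposite phase, fell by 1.89 ± 0.29 and the output factor Hlf by 1.46. The hour of each biopsy is not given in the labels, and in vehicle skin the changes were 2.12, 2.20 and -1.91 for Cry1, Per2 and Nr1d1. Of 25 genes of the oxidative and xenobiotic response 7 were higher and 8 lower (4 lower with a fixed mouse block and 4 without mouse 9). These shares were near the 22.7% higher and 27.4% lower over all genes. Srxn1, which repairs oxidised peroxiredoxins, rose by 1.55 ± 0.13 (adjusted p = 1.4e-06), at 10.55, 10.23 and 10.36 above 8.48 to 9.09. The dioxin receptor Ahr fell by 1.47 ± 0.20 and its repressor Ahrr by 1.42 ± 0.25. Immediate early genes were 8 higher, 1 lower and 12 not called of 21 (2 lower without mouse 7, 0 without mouse 9). The orphan receptor Nr4a2 rose by 2.53 ± 0.39 and the small Maf protein Maff by 2.39 ± 0.39, while Egr1 (0.07), Jun (0.25) and Fos (1.28; adjusted p = 0.078) did not pass. Of the sebaceous and sterol genes 3 were higher and 3 lower of 13, with the desaturase Scd3 of sebaceous glands at -2.87; 1 was higher without mouse 8 or mouse 9, and 5 were lower without mouse 7 or mouse 8. Schwann cell genes were 3 higher and 3 lower of 9 (1 higher without mouse 7 or mouse 8), with the neurotrophin receptor Ngfr at -3.19 and Cdh19 at 1.89 (adjusted p = 0.0694 with a fixed block, 0.057 without mouse 7 and 0.0785 without mouse 8).

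Compared with vehicle skin of the same day, few genes passed. limma called 20 of 12087 genes (0.165%), all 20 higher and 0 lower under tofacitinib, while 1015 (8.4%) had an unadjusted p under 0.05 in either direction. With a mouse block that is fixed instead of random, 0 passed and 430 had an unadjusted p under 0.05, and without the vehicle array of mouse 2 the count was 0 as well, with 618 at an unadjusted p under 0.05. Without the tofacitinib array of mouse 9 it was 126, and without those of mice 7 and 8 it was 6 and 7. Of the 20, 8 (0.0662% of the genes tested) were also higher than at day 0, named here because of their small number after their values were seen: Pmel, Tyrp1, Tyr, Syt4, Olah, Lrrc15, Fras1 and Cbr3. With the filter on low values at 6 instead of 4, 11 genes passed against vehicle. Lrrc15, a matrix-adhesion protein of fibroblasts, was at 2.45 to 3.32 at day 0, 2.96 and 3.64 under vehicle and 5.65, 6.13 and 4.63 under tofacitinib, 2.19 above vehicle (adjusted p = 0.0335). It passed the filter through arrays of the drug groups only, which favours a rise. Olah, a hydrolase of fatty acid synthesis, was at 2.26 and 2.49 under vehicle and at 3.67, 4.39 and 4.02 under tofacitinib, 1.66 above it (adjusted p = 0.00503). Neither vehicle array of Olah was over the filter's 4. Syt4, a vesicle protein, was 1.66 above vehicle and the basement membrane protein Fras1 1.24. In all 4 the tofacitinib arrays lay above both vehicle arrays, as in 11.9% of all genes tested. These genes were named because they were called higher than vehicle, so the separation is no further support.

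Other genes were above vehicle with tofacitinib arrays near or under the day-0 levels. Car6, a secreted carbonic anhydrase, was at 4.53 to 5.49 (median 5.00) at day 0, at 2.13 and 3.27 under vehicle and at 5.27, 6.16 and 4.85 under tofacitinib. It was 2.73 above vehicle (adjusted p = 0.0138) and 0.34 from day 0 (adjusted p = 0.32). Lipk, an epidermal lipase, was 2.23 above vehicle (adjusted p = 0.0398), where it had fallen by 1.83 from day 0, and Gprin2 was 2.32 above vehicle (adjusted p = 0.0273), having fallen by 3.62 under vehicle and by 1.31 under tofacitinib. Lowest under tofacitinib relative to vehicle by p were Cntnap2 (-1.77; adjusted p = 0.0506) and the stromelysin Mmp10 (-2.99; adjusted p = 0.0623), which did not pass. Mmp10 was at 8.76 and 8.19 under vehicle, at 6.06, 4.38 and 6.18 under tofacitinib and at 2.74 to 4.44 at day 0.

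Tofacitinib and ruxolitinib differ in structure outside a pyrrolopyrimidine core that both share, and their arrays of day 5 were close. limma called 3 of 12087 genes (0.0248%), all 3 lower under tofacitinib and 0 higher, with 685 (5.67%) at an unadjusted p under 0.05; with a fixed mouse block 0 passed, and 1492 had an unadjusted p under 0.05. Rel, a subunit of NF-kappaB in lymphocytes, was at 3.53 to 4.42 at day 0, at 8.53 and 8.37 under ruxolitinib and at 5.37, 4.24 and 4.80 under tofacitinib, a difference of -3.69 (95% interval -4.33 to -3.05; adjusted p = 4.11e-05, and 0.364 with a fixed block). Its rise from day 0 under tofacitinib (0.82; adjusted p = 0.00602) was 0.58 with a fixed block (adjusted p = 0.128) and 0.48 without mouse 7 (0.0686). The groups of both drugs stood apart. The kinase Cdk13 (-2.55; adjusted p = 0.0212) and the methyltransferase Prmt6 (-1.28; adjusted p = 0.0275) were the others. Among genes that moved from day 0 in both groups, the differences between the drugs were small against their intervals: -0.04 for Pmel (95% interval -0.84 to 0.76), -0.04 for Usp18 (-0.96 to 0.87), 0.04 for Socs3 (-0.70 to 0.79) and -1.18 for Shh (-2.71 to 0.35). These intervals leave room for differences of nearly 2-fold or more, and since doses are not given, the comparison is of these treatments and not of the compounds at equal dose.

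**Figure D5:**
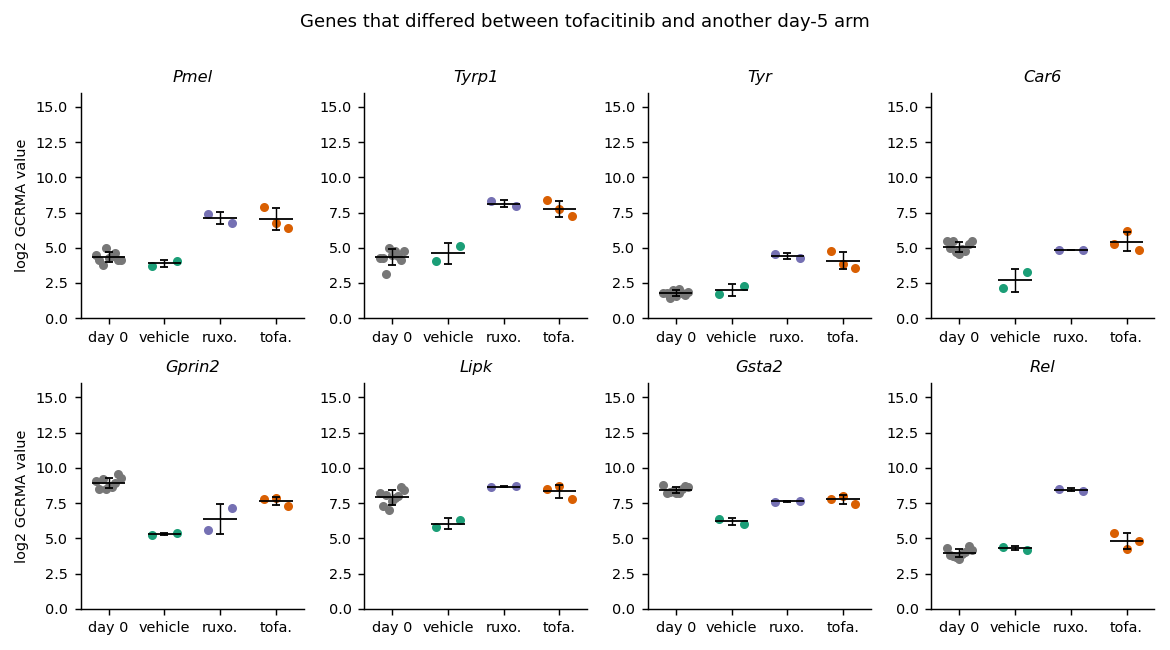
Log2 expression on each day-5 array of genes that differ between tofacitinib and vehicle or ruxolitinib, with the day-0 arrays beside them. Pmel, Tyrp1 and Tyr are high in both drug groups and low under vehicle, Car6 is low under vehicle only, and Rel is high under ruxolitinib only, at 8.37 and 8.53.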

How the data were processed

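RNA of 16 whole dorsal skin biopsies was extracted with a column kit, amplified and hybridised to Affymetrix mouse arrays, per the labels' protocols. The deposited log2 values, 45101 probe sets on each array, were made by the authors with GCRMA, per the submitters' processing notes; its version, and the set of arrays normalized jointly, were not given in the sources used here. GCRMA compresses values near background, so folds of dim genes are imprecise.

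Probe sets with a single symbol in the platform annotation (34958; 932 had several and 9211 none) and a value over 4 on at least 2 arrays were kept (20992), and the probe set of highest mean stood for its gene (12087 genes, of which 5297 had several). limma 3.58.1 in R 4.3.3 fitted 4 group means over the 16 arrays, with a random mouse effect (correlation 0.0982), empirical Bayes moderation and Benjamini-Hochberg adjustment over all genes, and called an adjusted p under 0.05. The day-0 and day-5 arrays of a number come from the same mouse, per the labels; the correlation of their deviations from the group means was 0.0426, 0.0276 and -0.00409 in mice 7, 8 and 9. The 3 comparisons were tofacitinib against day 0, and against vehicle and ruxolitinib at day 5. p-values measure the spread between mice.

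The text names the 12 largest rises and falls whose arrays did not overlap and whose 3 mice agreed in sign, the 4 members of smallest p of each of 35 gene lists (743 genes, 556 tested), the pathway's kinases, STATs and SOCS genes, up to 5 genes in each direction of each day-5 comparison, the 5 of largest spread, and other list members with their values. Members and lists were chosen with earlier results of these data known. The fit was tested on simulated data. Alternatives were a fixed block or none, other filters, averaging probe sets, other scalings, an intensity trend, a fold threshold, and leaving out arrays. Promoters were matched to RefSeq by symbol; those of Usp18 and Parp14 are not used here. Figures were drawn with matplotlib 3.10.9.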

Additional observations from a re-analysis of the deposited data

Results flagged for a closer look

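For 11 of the 172 genes named, 1 day-0 array lay farther from the other 8 than the gap test allows at 95% (critical value 0.493 for 9 arrays). The gap test flags about 1 in 20 groups where all arrays come from a single population. The day-0 arrays lay in separate ranges on the first principal component, with mouse 1 at -76.19 and mouse 8 at -67.32. Whether the flags follow a pattern was not tested. The array of mouse 1 was apart for Cdh19 (2.572), Ccl11 (1.531), Nr1d1 (8.773) and Jak2 (10.85), and that of mouse 8 for Actc1 (3.737) and H2-DMa (6.907). The array of mouse 7 was apart for Fosl1 (8.467), of mouse 3 for Tyrp1 (3.113), of mouse 4 for Maff (3.771), of mouse 6 for Il1r1 (8.031) and of mouse 9 for Krt25 (2.822).

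The change from day 0 differed between tofacitinib and vehicle in the test of the difference for 7 named genes. Tofacitinib was higher by 3.111 for Tyrp1, 3.089 for Pmel, 2.735 for Car6, 2.318 for Gprin2, 2.232 for Lipk, 2.061 for Tyr and 1.506 for Gsta2, a glutathione transferase. For Tyr both vehicle arrays were at background, so that its value is a fitted one and the measured bound is at least 3.13-fold. The change differed between tofacitinib and ruxolitinib for Rel (-3.695), Cdk13 (-2.548) and Prmt6 (-1.285), each higher under ruxolitinib than on any other array group. All 10 rest on 2 arrays in the group compared with, and their causes were not tested.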

How the results depend on the processing

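Of the 172 genes named, 156 were called against day 0, 149 of these also with the mouse as a fixed replicate block and 134 under every refit other than the fold threshold. The 6055 genes called became 4768 with the fixed replicate block (4472 shared), 2380 (1140 higher, 1240 lower) at a change of at least 1, and 3681 (1816 higher, 1865 lower) within the 3 own pairs. Leaving out 1 tofacitinib array gave 3969 to 6344 (1614 to 2643 higher, 2355 to 3701 lower), lowest without mouse 9. Within the own pairs the genes lower became 9 of 17 for basal keratinocytes (from 15), 4 of 18 for the BMP pathway (from 7), 3 of 10 for the hedgehog pathway (from 5) and 3 of 8 for the kinases and STATs (from 5). Chosen after seeing the data, a fit with only day-0 arrays 2, 4, 5, 6 and 7 gave 4663 and with only day-0 arrays 1, 3, 8 and 9 gave 6874. Centring the arrays gave 3214 higher and 2883 lower.

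Against vehicle the 20 genes became 0 with the fixed replicate block, 11 with no filter or a filter at 6, 12 with probe sets averaged, 31 (2 lower) with an intensity trend and 1 lower beside 20 higher with no block. Leaving out 1 array gave 0 to 126 (0 to 118 higher, 0 to 8 lower). Against ruxolitinib the 3 genes became 0 with the fixed replicate block and 5 with probe sets averaged, and 1 to 9 without 1 array (0 to 1 higher, 1 to 9 lower). A lone array left in a group was assumed to vary like the other groups. Of the calls named against day 0, the fixed replicate block ended those of Blnk, Cdh19, Ctf1, Rel, S100a9, Stat5b and Tnnc1.

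Signs turned only for genes whose change from day 0 was not called, and the cause was not tested. Rpusd4 was 0.067 with the fixed replicate block and in the own pairs, 0.035 after quantile normalization, 0.068 after centring, 0.062 without day-0 arrays 1, 3, 8 and 9, and -0.26 to 0.13 without 1 tofacitinib array (positive without mouse 7 at 0.099 and mouse 8). With probe sets averaged, Ccdc141 was -0.21, Jak1 0.041, Nsd3 0.37 and Wdr33 0.60, which passed there (adjusted p = 0.00137). Without 1 tofacitinib array, Nsd3 ran from -0.24 to 0.049, Car6 from -0.018 to 0.64 and Cdk13 from -0.10 to 0.51. Without day-0 arrays 2, 4, 5, 6 and 7, Cdk13 was -0.10 and Lipk -0.018. Probe sets near background give imprecise folds, and 2 arrays in each other day-5 group limit those comparisons.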
